A study of Mus musculus with 8 samples.

Results

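The 96 genes described here encode the nuclear parts of the mitochondrial respiratory chain and ATP synthase, and they were chosen by name from 21887 protein-coding genes. Members were the protein-coding genes whose symbols start with Nduf, Uqcr or Atp5, or with Cox followed by a digit from 4 to 8, together with Sdha, Sdhb, Sdhc and Sdhd. They lay on 19 chromosomes. It took in 8 assembly factors of complex I, which carry the Ndufaf name without being subunits of the finished enzyme, and 2 gene copies named after Ndufb4.

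The respiratory chain passes electrons from NADH (through complex I) and from succinate (through complex II) to complex III, cytochrome c and complex IV, which reduces oxygen. Proton pumping by complexes I, III and IV drives ATP synthase, also called complex V. Most subunits are made in nearly every cell, while some complex IV subunits exist as a broadly expressed form and a form restricted to heart, skeletal muscle, lung, testis or low oxygen.

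Chromatin immunoprecipitation with sequencing was done in EML_C1, a mouse blood progenitor line that is kept alive by stem cell factor and is labelled as C57BL/6. All libraries came from this untreated line, at the same labelled passages. Antibodies against 3 targets were used, each in 2 replicates: Runx1, a transcription factor needed for the formation of blood stem cells; Ezh2, the catalytic subunit of Polycomb repressive complex 2; and H3K27me3, the histone mark that this complex deposits. Chromatin for Runx1 and Ezh2 was cross-linked with 2 mM DSG for 60 min and then 1% formaldehyde for 60 min, and chromatin for H3K27me3 with 1% formaldehyde for 10 min. Runx1 and Ezh2 shared 1 input library, H3K27me3 had its own, and neither input was analysed here. Nothing in the labels marks the replicates as separate cultures, and the spread between them may be technical.

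A call means that peaks of both replicates overlapped the same window, reaching 1 kb to either side of one of the 2 ends of a gene. Folds are the authors' fold enrichment of the highest peak in that window, a linear ratio. The peaks were called in each library on its own. A peak is named as shared with a neighbour where it also overlapped an end window of that gene. There was no treated and untreated pair of groups, and genes are not replicates, so all counts below are descriptions without a test.

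Runx1 peaks lay at the ends of most respiratory chain genes, and the Polycomb signals at almost none. Runx1 was called at 78 of 96 members (81.2%), against 45.3% of all protein-coding genes. Ezh2 was called at 1 member (1.04%), against 18.4% of all genes. H3K27me3 was called at 2 members (2.08%), against 30.6% of all genes. None of the 78 members with Runx1 was called for Ezh2 or H3K27me3. Most genes with Runx1 were alike in this: of all 9910 called for it, 8449 were called for Runx1 alone. Of the other members, Ndufa4l2 was called for Ezh2 and H3K27me3 and Cox8c for H3K27me3 alone. The remaining 16 members (16.7%) were called for nothing, against 28.7% of all genes.

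The 8 tissue-restricted isoforms and the 2 copies stood apart from the other 86 members. Without them, Runx1 was called at 77 of 86 (89.5%), and Ezh2 and H3K27me3 at 0. Peaks of a single replicate were seen at a few more members. Counting a peak in either replicate gave 85 of 96 members with Runx1, 6 with Ezh2 and 4 with H3K27me3. The same count over all 21887 genes gave 11093 with Runx1, 6738 with Ezh2 and 8806 with H3K27me3. With Ezh2 replicate 1 alone 5 members had a peak, against 27.3% of all genes, and with replicate 2 alone 2 members did, against 22.6%. With H3K27me3 replicate 1 alone 4 members had a peak, against 38.6% of all genes, and with replicate 2 alone 2 members did, against 32.6%. A single library of either kind thus left members well under the share of all genes.

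The Runx1 count depended on how strong a peak had to be. With replicate 1 alone 81 members had a Runx1 peak, against 48.1% of all genes, and with replicate 2 alone 83 did, against 48%. Both replicates reached a q-value of 0.01 at 68 members, against 42.3% of all genes, and a q-value of 1e-05 at 59, against 39%. With only the 10000 strongest peaks of each list 27 members were left (28.1%), against 22.4% of all genes, so at the strongest sites the members were much nearer to the background. Windows of 2 kb called 82 members, against 49.7%. Of the 78 members with a listed start, 68 had Runx1 within 1 kb of it, against 46.1% of all genes with one.

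**Figure D1:**
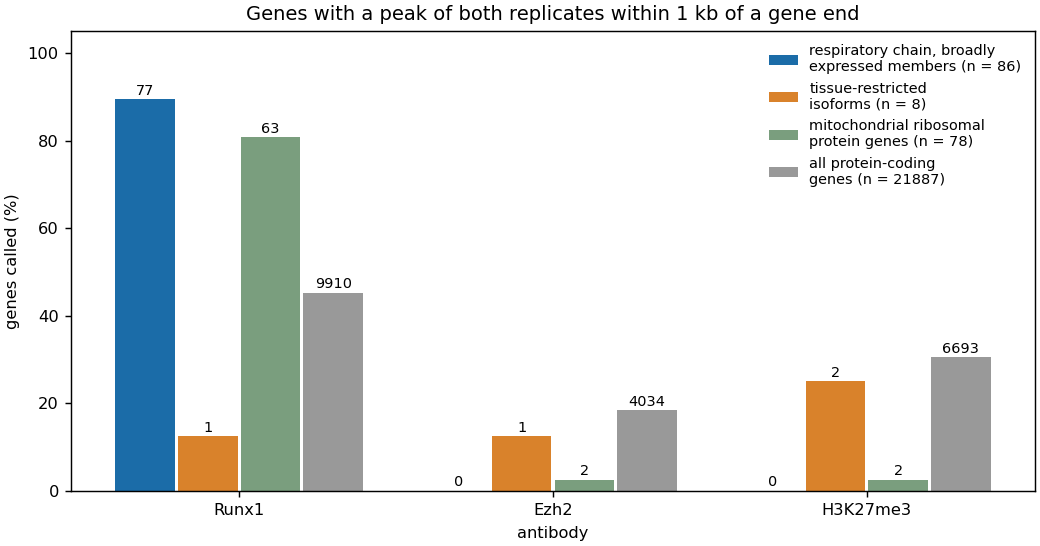
Percentage of genes (vertical axis) called for each antibody (horizontal axis), with the number of called genes above each bar. Broadly expressed members reach 89.5% for Runx1 and 0 for both Polycomb signals, while 1 of 8 tissue-restricted isoforms has Runx1 and 2 of 8 have H3K27me3.

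Another large set of nuclear genes for mitochondrial proteins gave similar counts. Among 78 genes of the mitochondrial ribosome, Runx1 was called at 63 (80.8%), Ezh2 at 2 (2.56%) and H3K27me3 at 2 (2.56%). The shares of all genes were 45.3%, 18.4% and 30.6% in the same order. The difference between these sets and the members was not tested.

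The sequences at 6 gene starts are printed as examples with and without a Runx1 peak. RefSeq promoters on GRCm38.p6, with the coordinates of mm10, run from 250 bases before to 50 bases after a listed start and were given for 78 of 96 members. Capitals mark RUNX words (TGTGGT or TGCGGT), NRF1 words (GCATGCGC), ETS words (CCGGAAGT) and YY1 words (AAGATGGC), each searched on both strands. Each sequence is written 5′ to 3′ along the gene. Ndufb4 (chr16:37654319-37654618, minus strand) had the highest Runx1 fold among members whose peak was not shared with another gene, and its summit lay in a promoter without any searched word. Uqcr11 (chr10:80406772-80407071, minus strand) and Ndufs7 (chr10:80249199-80249498, plus strand) had both a summit and RUNX words in the promoter. Cox8a (chr19:7217567-7217866, minus strand) is the broadly expressed form of a subunit whose muscle form is Cox8b (chr7:140900397-140900696, minus strand). Cox7a1 (chr7:30183921-30184220, plus strand) is the only tissue-restricted isoform with a Runx1 call.
Ndufb4 promoter: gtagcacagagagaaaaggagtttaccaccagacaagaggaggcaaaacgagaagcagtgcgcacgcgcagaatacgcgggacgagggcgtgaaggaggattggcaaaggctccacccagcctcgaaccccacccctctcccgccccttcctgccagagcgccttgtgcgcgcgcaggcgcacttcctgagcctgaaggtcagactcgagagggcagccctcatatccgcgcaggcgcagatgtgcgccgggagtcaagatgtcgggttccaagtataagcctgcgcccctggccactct
Uqcr11 promoter: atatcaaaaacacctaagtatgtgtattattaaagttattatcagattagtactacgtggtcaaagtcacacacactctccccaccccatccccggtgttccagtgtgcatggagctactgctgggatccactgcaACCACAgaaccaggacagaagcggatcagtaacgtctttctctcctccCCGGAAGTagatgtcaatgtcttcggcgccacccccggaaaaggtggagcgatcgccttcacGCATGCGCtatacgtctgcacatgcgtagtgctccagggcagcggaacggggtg
Ndufs7 promoter: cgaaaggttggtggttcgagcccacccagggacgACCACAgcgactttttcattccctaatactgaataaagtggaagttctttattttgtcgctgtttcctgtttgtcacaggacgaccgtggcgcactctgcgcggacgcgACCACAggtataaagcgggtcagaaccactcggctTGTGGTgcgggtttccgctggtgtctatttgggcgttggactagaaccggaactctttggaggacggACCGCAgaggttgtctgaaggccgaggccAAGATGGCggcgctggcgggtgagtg
Cox8a promoter: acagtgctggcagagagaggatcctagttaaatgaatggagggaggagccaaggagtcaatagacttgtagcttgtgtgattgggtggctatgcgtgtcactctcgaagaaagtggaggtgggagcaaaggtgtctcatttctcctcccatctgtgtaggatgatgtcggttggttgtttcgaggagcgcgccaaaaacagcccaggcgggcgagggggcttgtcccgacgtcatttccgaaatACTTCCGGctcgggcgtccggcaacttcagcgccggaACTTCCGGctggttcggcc
Cox8b promoter: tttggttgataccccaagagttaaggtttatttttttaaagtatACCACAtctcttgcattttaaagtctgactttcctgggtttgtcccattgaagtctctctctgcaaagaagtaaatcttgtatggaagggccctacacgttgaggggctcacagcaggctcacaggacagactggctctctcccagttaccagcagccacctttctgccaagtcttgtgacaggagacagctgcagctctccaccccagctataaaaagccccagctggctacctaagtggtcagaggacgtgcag
Cox7a1 promoter: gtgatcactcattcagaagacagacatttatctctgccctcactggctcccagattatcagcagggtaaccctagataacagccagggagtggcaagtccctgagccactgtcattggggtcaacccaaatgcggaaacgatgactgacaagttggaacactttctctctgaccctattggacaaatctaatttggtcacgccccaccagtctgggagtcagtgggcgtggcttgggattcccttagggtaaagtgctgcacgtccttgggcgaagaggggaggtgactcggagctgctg

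The Runx1 folds at members were mostly modest. The mean of both replicates had a median of 5.50 over the 78 called members (quartiles 3.32 and 8.15), with a range from 1.77 to 69.6. The median over all 9910 genes called for Runx1 was 7.50, and 25 of the 78 members lay above it. The replicates ranked the members alike: Spearman's rho between their folds was 0.927 over the 78 members, as a description, since both were set against the same input. The larger fold of a member was 1.17 times the smaller at the median. It was above 1.5 times in 3 members, at most 2.28 times.

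**Figure D2:**
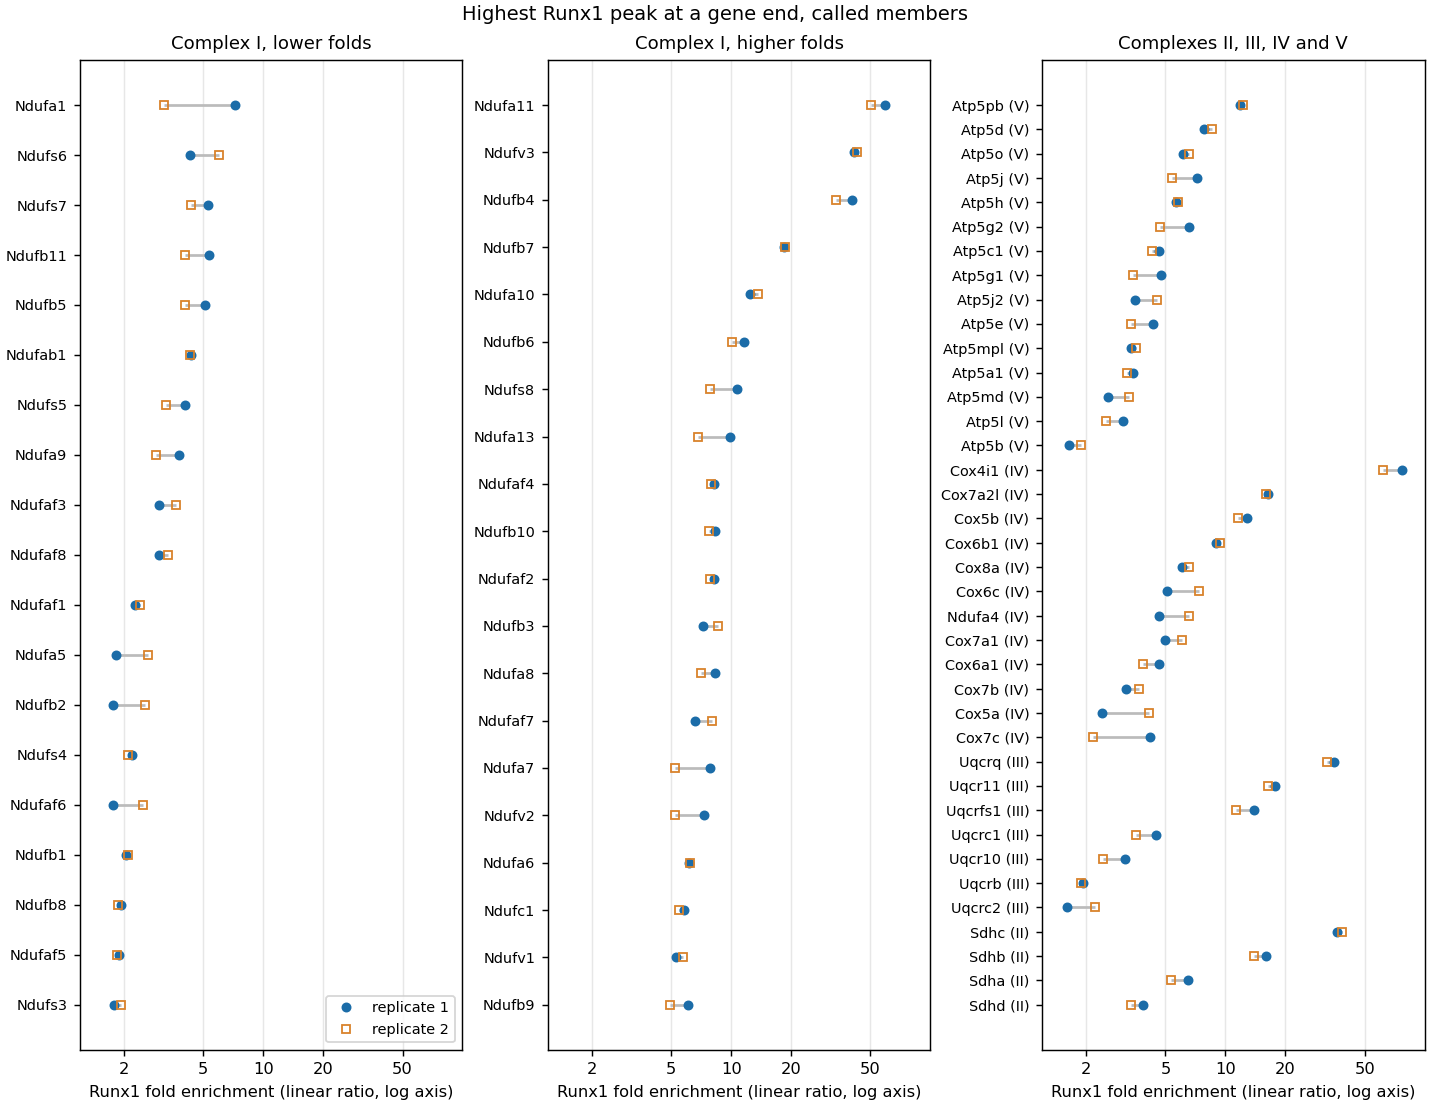
Runx1 fold enrichment (horizontal log axis) of 77 of the 78 called members, with a circle for replicate 1 and a square for replicate 2 joined by a line; complex I is split over 2 panels and the other complexes share the third. The genes at the right (Cox4i1, Ndufa11, Ndufv3, Sdhc, Ndufb4 and Uqcrq) stand between 32.3 and 77.0, and all other members are at most 18.6.

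Complex I, the NADH dehydrogenase, had Runx1 at 40 of its 47 members (85.1%), with a median fold of 5.49. The core subunits hold the flavin and the iron-sulphur clusters, and 6 of these 7 were called. Ndufs8, an iron-sulphur subunit, had folds of 10.7 and 7.85 and shared its peak with Aldh3b1. Ndufv1, which holds the flavin, had 5.31 and 5.70. Ndufs7, whose promoter is printed above, had 5.29 and 4.34. These genes had a peak in both replicates at similar height. For Ndufv2, another iron-sulphur subunit, the folds of 7.27 and 5.19 came from a peak shared with Ankrd12 at the end away from its listed start, and the mean was 2.52 in windows of 500 bp. Ndufs3, a core subunit, stood among the 3 lowest called members with 1.78 and 1.93 at an end shared with Kbtbd4. The deposited q-values of these peaks were 0.309 and 0.12, and the call ended at a q-value of 0.01. With replicate 2 alone the highest peak at an end of Ndufs3 was 4.83. Ndufs1, the largest core subunit, was not called: replicate 1 had 2 peaks at its ends, the higher of 1.61-fold, and the nearest peak of replicate 2 was 12548 bp away.

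Accessory subunits of complex I surround the core and stabilise it, and 26 of 30 were called, with a median fold of 5.56. The highest folds of the complex were in this class. Ndufa11, a membrane-arm subunit, had folds of 59.0 and 50.2 (54.6 ± 6.19, SD, n = 2), at a peak shared with Vmac. Ndufv3, a small subunit of the NADH-oxidising module, had 41.1 and 42.6 (41.8 ± 1.02, SD, n = 2), at a peak shared with Wdr4. Ndufb4, of the membrane arm, had 40.5 and 33.8 (37.1 ± 4.74, SD, n = 2), at a peak shared with no other protein-coding gene. The 3 genes exceeded the other complex I members in both replicates.

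Ndufb7, also of the membrane arm, had 18.4 and 18.6, but at its end away from the listed start and beside Tecr. In windows of 500 bp its mean fold was 6.37. The lowest called accessory subunit had a mean of 1.89. The 8 assembly factors were all called, with a median of 3.24 and a highest mean of 8.07 at Ndufaf4. Ndufaf5 was the lowest of these 8, with 1.89 and 1.84 at a peak shared with Esf1. The copies Ndufb4b and Ndufb4c had no Runx1 peak at an end in either replicate. Reads of near-identical copies may be split or dropped by an aligner. How such reads were treated is not stated in the labels or processing notes, and these values are uncertain.

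Complex II, succinate dehydrogenase, also belongs to the citric acid cycle, and all 4 of its genes were called. Sdhc, a membrane anchor, was the highest with folds of 36.5 and 38.4 (37.4 ± 1.35, SD, n = 2). Sdhb, the iron-sulphur subunit, had 15.9 and 14.0 (15.0 ± 1.37, SD, n = 2). Sdha, the flavoprotein, had 6.52 and 5.30, at a peak shared with Ccdc127. Sdhd, the other anchor, was the lowest with 3.87 and 3.38, at a peak shared with Timm8b, which encodes a chaperone of mitochondrial protein import. The 4 genes kept the same order in both replicates.

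Complex III had Runx1 at 7 of 8 members (87.5%), with a median fold of 4.03. Uqcrq, an accessory subunit, had 35.0 and 32.3 (33.7 ± 1.93, SD, n = 2), at a peak shared with Gdf9, a growth factor gene of the egg cell. Uqcr11, a small accessory subunit, had 17.7 and 16.3. Uqcrfs1, the Rieske iron-sulphur protein at the catalytic centre, had 13.9 and 11.3. These 3 genes stood above the other members of the complex in both replicates. Uqcrh was not called, with peaks in replicate 1 only, the higher of 1.56-fold.

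Complex V, ATP synthase, had Runx1 at 15 of 17 members (88.2%), with a median fold of 4.10 and a highest mean of 12.04. No member of this complex reached the folds seen at the top of the other complexes. The catalytic F1 head had all 5 genes called. Atp5a1, the alpha subunit, had 3.43 and 3.19 at a peak shared with Haus1. Atp5b, the catalytic beta subunit, had the lowest mean of all called members, with 1.64 and 1.89. These values came from separate peaks that lay in the same window without overlapping, with summits 172 bp apart and a deposited q-value of 1 in both replicates. The call ended when the replicate peaks had to overlap each other, which ended no other member's call. The window was at the end away from the listed start and shared with Baz2a, and windows of 2 kb gave a mean of 2.73. The peripheral stalk had 4 of 4 genes called, the membrane part 4 of 5 and the c ring 2 of 3. The remaining c-ring gene, Atp5g3, had peaks with folds of 1.83 and 2.43 at its listed start, which lies inside the gene as the table gives its ends.

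Complex IV, cytochrome c oxidase, had the smallest share of Runx1 calls of the complexes, 12 of 20 members (60%). It holds all 8 tissue-restricted isoforms, of which 1 was called. The 7 ubiquitous counterparts had 6 calls, and the 5 subunits without such a pair had 5. Cox5a, one of those 5 and a subunit next to the catalytic core, had folds of 2.40 and 4.14 at an end. Its listed start lies inside the gene and had a mean of 6.43. Cox7a2l, which links complexes III and IV, had 16.3 and 16.0 (16.1 ± 0.229, SD, n = 2).

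The isoform pairs separated by Runx1 in most cases. Cox4i1, the broadly expressed form of the largest nuclear subunit of complex IV, had folds of 77.0 and 62.2 (69.6 ± 10.5, SD, n = 2). It had the highest mean of all members and ranked 264 among the 9910 called genes. The peak covered chr8:120667539-120668819 in replicate 1, at the left end of the gene, and was shared with Emc8 and Gm27021. Cox4i2, the form of lung and low oxygen, had no Runx1 peak at its ends. Its nearest peaks were 1396 and 1428 bp away, with folds of 2.42 and 2.31, and it was called in windows of 2 kb.

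Cox6a1, the broadly expressed form, had Runx1 folds of 4.65 and 3.83, and the nearest peak to its heart and muscle form Cox6a2 was 5882 bp away. Cox6b1 had 9.01 and 9.36, while the nearest peak to the testis form Cox6b2 was 2136 bp away. Cox8a had 6.06 and 6.59, while the nearest peaks were 16349 bp from the muscle form Cox8b and 20478 bp from the testis form Cox8c. In these pairs both replicates placed the peak at the same member. Cox7b had 3.18 and 3.70, and the nearest peak to the testis form Cox7b2 was 108488 bp away in replicate 1 and 431593 bp away in replicate 2. Ndufa4, now counted as a complex IV subunit, had 4.61 and 6.54 at a peak shared with Phf14, and its low-oxygen paralogue Ndufa4l2 had none.

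The pair of Cox7a1 and Cox7a2 ran the other way at the gene ends. Cox7a1, the heart and muscle form, had Runx1 folds of 4.97 and 6.04 (5.50 ± 0.759, SD, n = 2). Its summits lay at -107 and -110 bp from the listed start, inside the promoter printed above, and the peak was shared with no other gene. Cox7a2, the broadly expressed form, had no peak within 1 kb of the ends of its table entry, which spans 16182 bp. At its listed start, which lies inside that span, it had peaks with folds of 10.7 and 9.96. Cox7a2 was called when windows were set at listed starts.

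**Figure D3:**
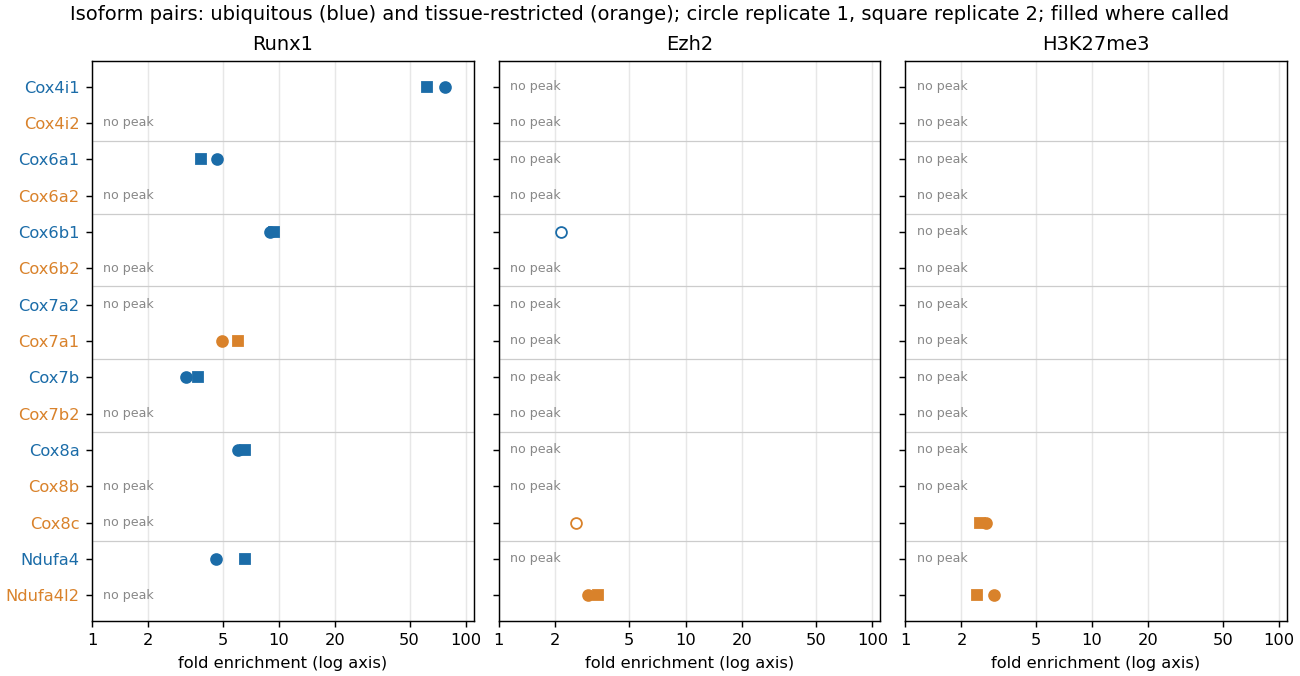
Fold enrichment (horizontal log axis) of the highest peak at an end of each isoform for the 3 antibodies, in blue for ubiquitous and orange for tissue-restricted forms; circles are replicate 1, squares replicate 2, and filled symbols mark genes called in both. Runx1 sits at 6 of 7 blue genes and 1 of 8 orange genes, and the filled Polycomb symbols are at Ndufa4l2 and Cox8c.

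Polycomb signals at the ends of members were confined to 2 tissue-restricted isoforms under the rule used here. Ndufa4l2 (chr10:127509274-127517154) had Ezh2 peaks of 2.99-fold in replicate 1 and 3.40-fold in replicate 2 (3.19 ± 0.285, SD, n = 2). The Ezh2 folds of all called genes had a median of 2.96 and an upper quartile of 3.79. Its Ezh2 peaks were 1571 and 753 bp wide, with deposited q-values of 6.51e-07 and 2.78e-07. H3K27me3 at the same end had folds of 2.99 and 2.43 (2.71 ± 0.397, SD, n = 2), in peaks 3171 and 2822 bp wide with q-values of 0.000152 and 0.0242. Both antibodies thus marked the left end of Ndufa4l2 in both replicates, and the same peaks were shared with Stac3, a gene of muscle calcium handling.

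Cox8c (chr12:102899306-102900534), the testis form, had H3K27me3 folds of 2.71 and 2.51 (2.61 ± 0.141, SD, n = 2). The H3K27me3 folds of all called genes had a median of 2.29 and an upper quartile of 2.49, under the means of both Cox8c and Ndufa4l2. The peaks were 488 and 1862 bp wide, with q-values of 0.00724 and 0.0477. Ezh2 had a peak of 2.59-fold at Cox8c in replicate 1 and none in replicate 2. When both replicates had to reach a q-value of 0.01, the Ezh2 call at Ndufa4l2 was kept and both H3K27me3 calls ended. At that cutoff 8.08% of all genes were still called for Ezh2 and 3.02% for H3K27me3.

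The other tissue-restricted isoforms had no Polycomb peak at an end in either replicate, namely Cox4i2, Cox6a2, Cox6b2, Cox7a1, Cox7b2 and Cox8b. Cox7b2 had 2 H3K27me3 regions of both replicates within its gene. The nearest Ezh2 region of both replicates was 3423 bp from Cox6a2 and 88173 bp from Cox4i2. Apart from Cox7a1, these genes carried neither Runx1 nor a Polycomb signal at their ends.

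Regions of H3K27me3 also lay farther from members than from other genes. A region found in both replicates touched 3 of 96 members (3.12%), against 36.8% of all genes, and the median distance to the nearest one was 18002.5 bp, against 6987 bp. For Ezh2 a region touched 1 member (1.04%), against 24.8%, but the median distance was alike, 24863.5 bp against 25012 bp. Among the members called for Runx1, Uqcrfs1 and Ndufaf4 were the only ones with such a region within 2 kb of the gene. Uqcrfs1 had an Ezh2 region at 1178 bp and an H3K27me3 region at 1313 bp, and Ndufaf4 had them at 1850 and 1761 bp. The copy Ndufb4c had an H3K27me3 region at 1189 bp. Members were also shorter, with a median length of 7228 bp against 17169 bp, and the part of length in these shares was not tested.

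The Runx1 summits lay close to the starts of the genes. Of the 78 called members, 67 had a listed start, and in 62 of them (92.5%) both summits were within 1 kb of it, against 83.4% of all called genes with a start. Within 250 bp the count was 51 (76.1%), against 66.3%. Members thus had summits near their starts somewhat more often than all called genes, without a test. Members were also shorter, with a median of 7228 bp against 17169 bp over all genes. The part of length in these counts was not tested. The summit was upstream of the start in both replicates at 43 of the 62 members, downstream at 12 and on different sides at 7. The summits of both replicates were a median of 17 bp apart and at most 251 bp.

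**Figure D4:**
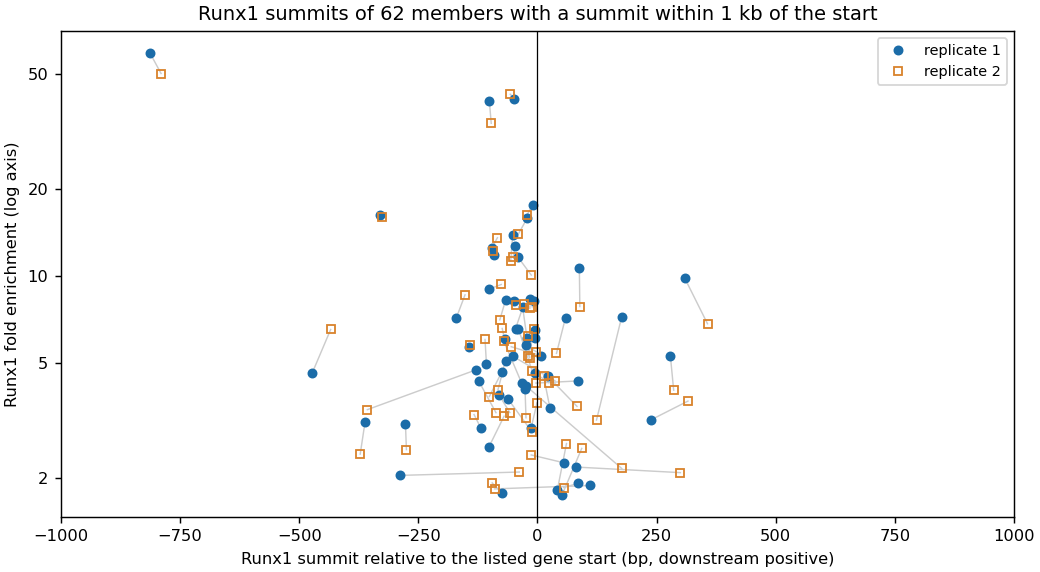
Position of the Runx1 summit relative to the listed start (horizontal axis, bp, downstream positive) against fold enrichment (vertical log axis) for the 62 members with both summits within 1 kb, with lines joining the replicates. Most points crowd just left of 0, and Ndufa11 is at the far upper left with summits at -813 and -790 bp.

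Many of these peaks were shared with a neighbouring gene. In 40 of the 78 called members (51.3%) the Runx1 peaks also overlapped an end window of another protein-coding gene, against 29.5% of all called genes. Such a peak calls both genes, and the data do not say which of the 2 it serves. Some neighbours were themselves genes of mitochondria or of their control. Atp5j, a peripheral stalk subunit, shared its peak with Gabpa, the DNA-binding subunit of nuclear respiratory factor 2, with folds of 7.19 and 5.41. Ndufb5 shared its peak with Mrpl47 and Ndufs6 with Mrpl36, both genes of the mitochondrial ribosome. Ndufa7 shared its peak with Rps28 of the cytosolic ribosome.

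The letters at the starts of members differed from those of other genes mainly in words of factors other than RUNX. A RUNX word was in 20.5% of the 83 listed promoters of members and in 21.6% of all 21263 listed promoters of the same length. The NRF1 word, bound by nuclear respiratory factor 1, was in 14.5% of members' promoters against 3.52% of all. The YY1 word was in 13.3% against 3.05%. The ETS word, the kind GABPA binds, was in 6.02% against 5.15%. Among promoters with Runx1 summits of both replicates inside, the differences were smaller for NRF1 and YY1 words and reversed for ETS words. There the NRF1 word was in 15.6% of members' promoters against 7.99% of all. The YY1 word was in 15.6% against 5.9%, and the ETS word in 8.89% against 11.4%. None of these words contains another, while NRF1 words on both strands can overlap, as in Ndufaf4 and Cox6a1. A word is a match of letters, not a bound site.

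Runx1 summits of both replicates fell inside 45 of the 83 promoters of members (54.2%), against 26.5% of all. A RUNX word was present in 8 of those 45 (17.8%), against 25% of the 5643 promoters with a summit among all genes. Members with Runx1 summits therefore did not hold RUNX words more often than the promoters of all genes. Ndufs7 was the richest case: its printed promoter has 4 RUNX words, and the centre of the nearest was 5 bp from the mean summit. The summits of its replicates were 89 bp apart, so neither of them lay at that mean. In Uqcr11 the RUNX word was 96 bp from the mean summit, and the same promoter held an ETS word and an NRF1 word. The printed promoters of Ndufb4, Cox8a and Cox7a1 had a summit and no RUNX word, and Cox8b had a RUNX word and no peak. Cox8a had 2 ETS words, at -6 and 32 from the start.

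The promoters of members were rich in CpG. They held a median of 20 CpG dinucleotides, against 13 in all listed promoters, and the ratio of observed to expected CpG was 0.829 against 0.567. The GC content differed less, with medians of 58.3% and 56.3%. Promoters with Runx1 summits of both replicates were rich in CpG among all genes too. Members with such summits had a median of 23 CpG against 25 in all promoters with them. Their ratio was 0.87 against 0.825, and their GC content 60.7% against 64%. The isoform classes differed here too. The 4 listed tissue-restricted isoforms had 2 to 10 CpG, with a median of 8.5, and the 6 listed ubiquitous counterparts had 5 to 32, with a median of 18. The ranges overlapped through Cox7b, which had 5. Cox8b had the fewest CpG of any member with a listed promoter, 2, while Cox8a had 19. Cox7a1 had 7 CpG and was the listed member with the fewest that still held a Runx1 summit of both replicates.

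**Figure D5:**
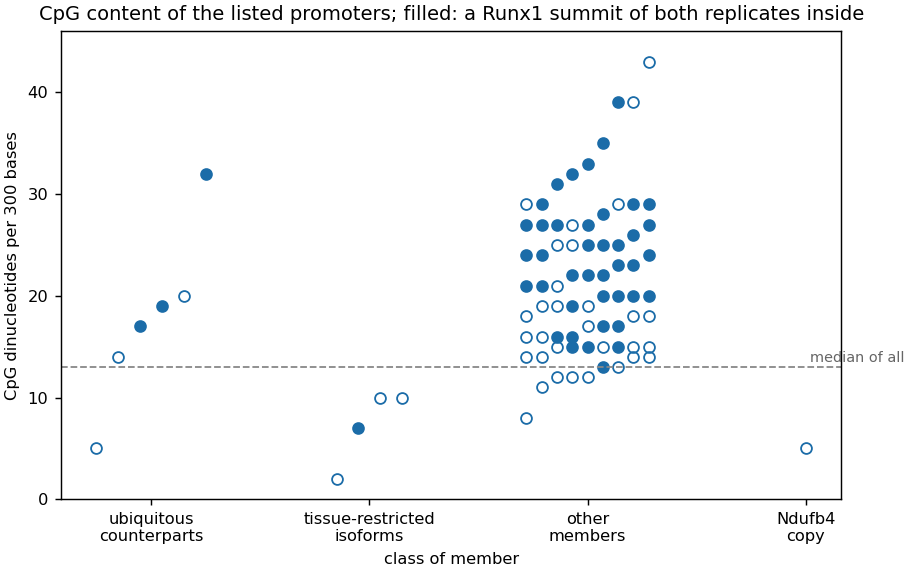
CpG dinucleotides in each listed promoter of 300 bases (vertical axis) by class of member (horizontal axis), 1 circle per promoter, filled where both replicates had a Runx1 summit inside; the dashed line is the median of all listed promoters, 13. The 4 tissue-restricted promoters are all under the line, and 1 of them, Cox7a1, is filled.

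Genes outside the name rule that build or feed the chain also had many Runx1 calls and few Polycomb calls. Of 41 assembly and electron carrier genes, Runx1 was called at 38 (92.7%), Ezh2 at 2 (4.88%) and H3K27me3 at 1 (2.44%). The shares of all genes were 45.3%, 18.4% and 30.6% in the same order. The median Runx1 fold of the list was 6.42, against 7.50 over all genes called for Runx1. The highest was Cox19, a copper chaperone of complex IV assembly, with 28.2 and 26.1. Cytochrome c again came as a pair. The broadly expressed Cycs had Runx1 folds of 6.75 and 4.80 and no Polycomb call. The testis form Cyct had no Runx1 call, Ezh2 folds of 2.59 and 2.36, and H3K27me3 folds of 2.83 and 2.44.

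Regulators of mitochondrial gene expression had Runx1 at 13 of 15 genes (86.7%), against 45.3% of all genes. Esrra, a nuclear receptor that drives respiratory genes, had folds of 42.6 and 35.3. Tfam, which packages and transcribes mitochondrial DNA, had 36.5 and 32.8. The coactivators of the PGC-1 family differed from each other. Ppargc1b had Runx1 folds of 19.30 and 19.03 and no Polycomb call. Ppargc1a, the form known from muscle and brown fat, had no Runx1 call, Ezh2 folds of 13.1 and 8.32, and H3K27me3 folds of 4.80 and 3.44, higher than at any respiratory chain member in both replicates.

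Expression was not measured, so the identity of the cells could be checked only by calls. Runx1 was called at 7 of 7 blood progenitor markers, including Kit, the receptor for stem cell factor, against 45.3% of all genes. The median fold of these markers was 4.02, against 7.50 over all called genes, and the lowest, Ly6a, had 2.46 and 1.50. Since 81.2% of the respiratory chain members were called too, a Runx1 call does not single out a progenitor gene. H3K27me3 was called at 0 of 7 markers, against 30.6% of all genes. Ezh2 was called at 1 of 7, against 18.4%, namely Meis1 with folds of 1.61 and 2.45. Of 6 muscle markers, H3K27me3 was called at 6, Ezh2 at 5 and Runx1 at 0. Myh6 and Myh7 are neighbours and had the same H3K27me3 folds. Ezh2 lists held 159007 to 178354 peaks, H3K27me3 lists 178423 to 220455 and Runx1 lists 64059 to 66153. In the same order, 14.1% to 20.2%, 1.34% to 6.13% and 60% to 69.3% of peaks had a q-value of at most 0.01. The depth of the libraries is unknown, and a missing peak means only that none was in the deposited list. In bulk chromatin, binding in fewer cells and weaker binding in each cell cannot be told apart.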

How the data were processed

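Peak lists of 6 libraries were used, 2 replicates for each of 3 antibodies. The tools MACS2 2.0.10, Bowtie2 2.2.1, SAMtools and Picard and the build mm10 are listed in the submitters' processing notes, without roles or settings. The lists of Runx1 and Ezh2 are narrow peaks and give summits, and those of H3K27me3 are broad peaks. For each peak the deposited lists give a fold enrichment, a linear ratio computed by the authors. The authors' peak caller also wrote p-values and q-values as −log10 before deposit. The weakest peak of each list had a peak caller's p-value of 0.0493 to 0.0499, so the lists also hold weak peaks. The deposited score was not used. The depth of each library is unknown, since no read totals were used.

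Gene ends came from the RefSeq table of GRCm38.p6, which gives no strand. A gene on chromosomes 1 to 19, X or Y was called where both replicates had a peak overlapping the same window by at least 1 bp. The end windows of the 12 members shorter than 2 kb overlap. The mean and SD are over the 2 replicates. Promoters and starts came from the RefSeq promoter table, with 83 entries for 78 members, and the other 18 members had no entry. All values were computed with Python 3.11.15, pandas 2.3.3 and numpy 2.4.6, and the calling was tested on simulated data.

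Named genes were the members called for Ezh2 or H3K27me3, the 10 with the highest and the 3 with the lowest mean Runx1 fold, all isoform pairs, the core subunits, and neighbours sharing a peak. Other genes, such as Uqcrh, Atp5g3 and Ndufaf4, were named after their values were seen. Some items are not reported here. The members and lists were chosen with earlier results of these data known. Alternatives were other q cutoffs, windows, overlap rules, the listed start alone and leaving out each replicate.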

Additional observations from a re-analysis of the deposited data

How the results depend on the processing

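Runx1 calls at members ranged from 59 to 83 over all alternatives except the 10000 strongest peaks per list, which left 27, with 3 ubiquitous counterparts and 0 tissue-restricted isoforms. Windows of 2 kb gave 2 tissue-restricted isoforms for Runx1. The median Runx1 fold of called members was 5.82 at a q-value of 0.01, 6.30 at 1e-05, and 4.83 to 5.29 with 1 replicate left out, when 81 to 83 members were called.

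Ezh2 calls at members rose from 1 to 3 in windows of 2 kb and 2 over the whole gene. The share of all genes rose too, from 18.4% to 23.6% and 31.5%. At the listed start 0 of 78 members were called, against 15.2% of all genes with one. With 1 replicate left out 2 to 5 members were called, against 22.6% to 27.3% of all genes. These held 1 to 2 tissue-restricted isoforms and 0 to 1 ubiquitous counterparts. Ndufa4l2 has no listed start, so its Ezh2 call could not be made there, and tissue-restricted isoforms then had 0 of 4.

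H3K27me3 calls at members went from 2 to 0 at q-values of 0.01 and 1e-05, against 3.02% and 0.425% of all genes. They were 1 with the 10000 strongest peaks, against 5.62%, and 1 where the midpoint had to lie in the window, against 17%. Windows of 2 kb gave 5, against 34.9%, and the listed start 0 of 78, against 26% of all genes with one. With 1 replicate left out they were 2 to 4, against 32.6% to 38.6%. For tissue-restricted isoforms the calls were 0 at both q-values, 1 with the strongest peaks, 1 with the midpoint rule and 0 of 4 at the listed start. Ndufa4l2 and Cox8c have no listed start, so their H3K27me3 calls could not be made there. In replicate 2 their q-values of 0.0242 and 0.0477 were above both cutoffs. The cause of the other shifts was not tested.

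The peak lists hold no control samples, and their unknown depth limits what a missing peak shows. No paired analysis was possible because no result comes from a test between groups.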
